A study of Mus musculus with 34 samples.

Results

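Expression of 8 genes whose products sit on or build lipid droplets was followed by RNA-Seq through brown preadipocyte differentiation and its inhibition. The genes were the 5 perilipins *Plin1*, *Plin2*, *Plin3*, *Plin4*, and *Plin5*, together with *Cidec*, *Bscl2*, and *Fitm2*, which are 8 of 23109 genes listed. They were chosen by name, and each was represented by its RefSeq transcript with the highest mean RPKM (reads scaled by transcript length and library size) over 14 libraries. The cells were preadipocytes from interscapular brown fat of newborn C57BL/6J pups, immortalized with SV40T. The sample labels give their genotype as GR-flox/flox and mention a retroviral Vec or Cre vector for the glucocorticoid receptor gene, whereas the methods describe preadipocytes of wild-type mice. In the first experiment the cells carried retroviral FLAG-tagged histone H3.3, either wild type (WT) or with lysine 36 replaced by methionine (K36M), and were collected at D0, D2, and D7 of adipogenesis induced with dexamethasone, insulin, T3, IBMX, and indomethacin. Per the methods, the inducers other than insulin and T3 were withdrawn at D2, so the step from D2 to D7 also includes a change of medium, in WT and K36M cells alike. In the second experiment WT and K36M cells also received a PPARγ retrovirus and were treated with DMSO or with rosiglitazone (Rosi), a PPARγ ligand. The labels give 0 h for DMSO and 24 h for Rosi, whereas the study's own description has either agent given for the same time, so whether time also differed between these libraries was not settled here. In the third experiment cells carried a lentiviral control (Ctrl) or *Nsd2* knockdown (KD) shRNA and were collected at D0 and D2. The labels name the same cell type for all 14 libraries, and there was 1 library per condition.

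A lipid droplet is a core of triglyceride and sterol ester under a single layer of phospholipid, and perilipins are the proteins that coat this layer and control the access of lipases. PLIN1 is the coat protein of mature adipocytes and holds the lipase activator ABHD5, PLIN2 and PLIN3 are found in most cell types, PLIN4 coats small nascent droplets, and PLIN5 is known from oxidative tissues such as heart and brown fat, where it links droplets to mitochondria. CIDEC promotes droplet fusion, seipin (the product of *Bscl2*) organizes the sites in the endoplasmic reticulum where droplets form, and FITM2 is an endoplasmic reticulum protein needed for droplet budding.

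Without replicates no difference could be tested, so a gene was called when its RPKM ratio between 2 libraries was over 2-fold, and each ratio carries a 95% counting interval from the number of reads (Clopper-Pearson). The interval covers counting error only and compares libraries, not conditions. The words rose and fell are used for ratios over 2-fold whose interval excludes 1. The libraries held 12213559 to 24365867 mapped reads, at which 3 reads on a 1 kb transcript equal 0.123 to 0.246 RPKM. *Nsd2* itself was at 19.9 RPKM in Ctrl and 5.85 in KD cells at D0, and at 29.0 and 7.01 at D2. *Pparg* was at 42.6 to 71.8 RPKM in the 4 libraries with the PPARγ retrovirus and at 13.4 in WT cells at D0. The 6 adipocyte markers *Fabp4*, *Lpl*, *Cebpa*, *Pparg*, *Adipoq*, and *Cd36* summed to 263 RPKM in WT cells at D0 and to 5193 at D7. Of 5 brown fat markers, *Ucp1*, *Dio2*, and *Cidea* were at or near 0 throughout, with highest values of 0.194, 0.0543, and 0.0973 RPKM, whereas *Elovl3* reached 7.38 RPKM in WT cells at D2 and *Ppargc1a* went from 0.210 RPKM at D0 to 6.32 at D7. Macrophage markers (4 of 5 listed) summed to at most 8.28 RPKM, mostly *Cd14*, and endothelial markers (4 of 4) to at most 2.47. Skeletal muscle markers (5 of 5) summed to at most 67.7, of which *Acta1* made 67.5, while *Myod1* and *Myog* did not exceed 0.0932. The 6 preadipocyte or fibroblast markers, led by *Col1a1* and *Ly6a*, summed to 50.1 to 1872 RPKM. In bulk RNA, fewer cells of a type and less RNA per cell cannot be told apart.

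On the mm9 assembly (GENCODE M1 annotation), *Plin4* (chromosome 17, 56240014 to 56249225) and *Plin5* (56251024 to 56257019) are neighbors on the minus strand, 1798 bases apart. *Plin3* (56418385 to 56429934) lies 161365 bases beyond *Plin5* on the same strand. The remaining members are scattered, with *Plin1* on chromosome 7 (86866050 to 86877662), *Plin2* on chromosome 4 (86294290 to 86315964), *Cidec* on chromosome 6 (113374628 to 113385754), *Bscl2* on chromosome 19 (8911957 to 8923173), and *Fitm2* on chromosome 2 (163292115 to 163298365). *Bscl2* overlaps *Gng3* on the opposite strand over 1780 bases, and since the use of strand in counting is not stated, reads of these 2 genes cannot be told apart there. The overlaps of *Plin4* with *Hdgfrp2* (6 bases) and of *Fitm2* with *2310001K24Rik* (39 bases) are small.

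The 250 bases upstream of the start site were read from RefSeq (GRCm38.p6) for the members, using the first start site listed for each, and 4 perilipin promoters are shown because these genes diverged in K36M cells with Rosi. *Plin1* and *Plin4* were lower there than in WT cells, and *Plin2* and *Plin5* higher. The windows are chr7:79732777-79733026 (*Plin1*), chr17:56109783-56110032 (*Plin4*), chr4:86670060-86670309 (*Plin2*), and chr17:56117549-56117798 (*Plin5*), all on the minus strand and written 5′ to 3′ in the direction of the gene. Capitals mark AGGTCA (the nuclear receptor half-site), CCAAT, or TATAA on either strand.
Plin1: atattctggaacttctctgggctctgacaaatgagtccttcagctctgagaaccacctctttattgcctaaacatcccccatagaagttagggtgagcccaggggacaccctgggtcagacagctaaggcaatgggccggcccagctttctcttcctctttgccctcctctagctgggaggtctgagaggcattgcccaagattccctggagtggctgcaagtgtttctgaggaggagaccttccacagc
Plin4: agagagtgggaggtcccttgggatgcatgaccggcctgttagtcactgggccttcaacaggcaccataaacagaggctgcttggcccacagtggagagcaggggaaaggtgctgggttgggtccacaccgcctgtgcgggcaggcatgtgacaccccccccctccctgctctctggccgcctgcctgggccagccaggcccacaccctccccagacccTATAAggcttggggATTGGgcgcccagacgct
Plin2: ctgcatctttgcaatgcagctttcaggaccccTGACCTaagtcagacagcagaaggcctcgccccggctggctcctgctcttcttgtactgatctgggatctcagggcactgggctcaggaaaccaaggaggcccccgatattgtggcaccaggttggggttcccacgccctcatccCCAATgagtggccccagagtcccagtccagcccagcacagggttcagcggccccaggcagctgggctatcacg
Plin5: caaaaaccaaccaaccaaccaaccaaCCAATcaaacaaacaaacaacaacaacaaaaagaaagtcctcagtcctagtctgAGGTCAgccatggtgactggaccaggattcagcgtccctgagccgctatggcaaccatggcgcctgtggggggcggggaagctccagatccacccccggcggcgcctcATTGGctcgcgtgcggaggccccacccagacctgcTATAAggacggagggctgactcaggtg
The half-site AGGTCA was found in *Plin2* (218 bases upstream, on the reverse strand) and *Plin5* (170 bases upstream) and in 3740 of 27025 promoters of the same length (13.8%). CCAAT was found in 5 of 8 members (*Plin2*, *Plin3*, *Plin4*, *Plin5*, and *Bscl2*) and in 34.5% of promoters, and TATAA in *Plin4* and *Plin5* and in 23.5%. No member held AGGTCANAGGTCA, the direct repeat of the half-site (0.037% of promoters), CACGTG (6.05%), or TTGCGCAA (0.17%) in this window. A match describes letters only, and where no match was found nothing follows for any factor.

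Before differentiation the droplet genes were already expressed at very different levels. In WT preadipocytes at D0, *Plin2* led with 99.7 RPKM, followed by *Plin3* with 27.0, *Plin4* with 22.3, *Fitm2* with 11.0, and *Bscl2* with 9.39. *Cidec* (0.604 RPKM, 22 reads) and *Plin1* (0.503 RPKM, 20 reads) were close to the detection limit, and *Plin5* had 0 reads. Over all 14 libraries *Plin2* ranged from 19.5 to 742 RPKM and *Plin3* only from 13.8 to 53.4, a 3.86-fold span. The adipocyte coat gene *Plin1* (0.0617 to 148 RPKM) and *Cidec* (0.0892 to 236) had the widest ranges, though their lowest values rest on 2 and 3 reads. *Plin5* never exceeded 5.83 RPKM, so every statement on it rests on 143 reads or fewer.

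**Figure D1:**
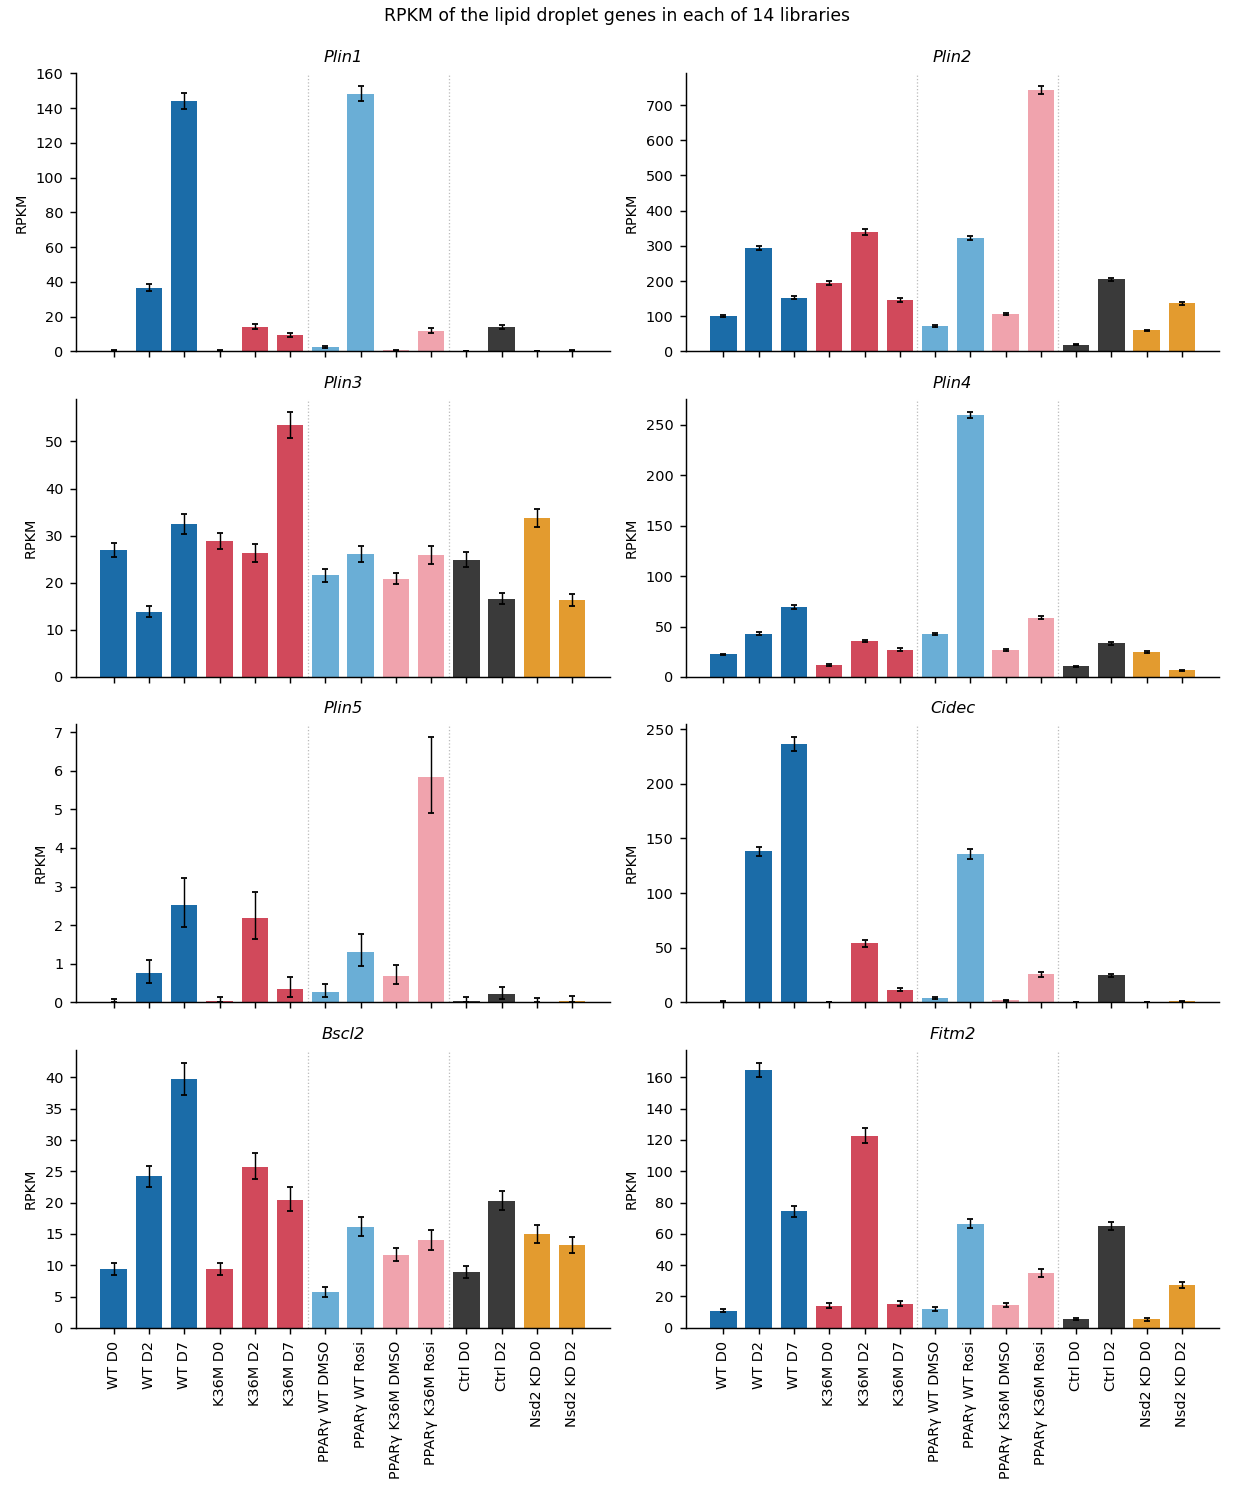
RPKM of each lipid droplet gene (vertical axis, linear, a separate scale per gene) in the 14 libraries (horizontal axis), with 1 library per bar and 95% counting intervals as error bars (exact Poisson). *Plin1* and *Cidec* stand high in WT D2, WT D7, and PPARγ WT Rosi, *Plin2* and *Plin5* reach their maxima of 742 and 5.83 RPKM in PPARγ K36M Rosi, and *Plin3* varies least.

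In WT cells, 6 of 8 members rose from D0 to D2, against 13.6% of all genes called up, and 0 fell, against 25.2% called down. *Cidec* went from 0.604 to 138 RPKM (log2 ratio 7.84, interval 7.24 to 8.51) and *Plin1* from 0.503 to 36.8 RPKM (6.19, interval 5.56 to 6.91). *Fitm2* rose from 11.0 to 165 RPKM (14.9-fold), which made it the second highest member at D2 after *Plin2*. *Plin2*, the coat gene with the highest level at D0, rose from 99.7 to 294 RPKM (2.95-fold), and seipin (*Bscl2*) from 9.39 to 24.2 RPKM (2.57-fold). *Plin5* went from 0 to 28 reads, at least 10.4-fold higher against a floor of 3 reads, with a lower counting bound of 2.99 on the log2 scale. *Plin4*, at 22.3 and 43.0 RPKM, stayed just under the threshold (1.92-fold). *Plin3* stood apart with a lower value at D2, 13.8 against 27.0 RPKM (log2 ratio -0.97, interval -1.11 to -0.82), also just under the threshold.

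Between D2 and D7 the WT members separated into those with higher values at D7 and those with lower ones. *Plin1* climbed a further 3.91-fold to 144 RPKM and *Plin5* 3.33-fold to 2.52 RPKM (28 and 65 reads), while the call rate over all genes was 22.4% up. *Plin3* rose 2.35-fold to 32.5 RPKM after its lower value at D2, which brought it back near its D0 level. *Cidec* (138 to 236 RPKM, 1.71-fold), *Plin4* (43.0 to 69.0, 1.60-fold), and *Bscl2* (24.2 to 39.7, 1.64-fold) also had higher values at D7, short of 2-fold. *Fitm2* fell from 165 to 74.3 RPKM (2.22-fold; 12.2% of all genes were called down), and *Plin2* went from 294 back to 153 RPKM (1.92-fold lower). At D7 *Cidec*, *Plin2*, and *Plin1* were thus the 3 leading members, whereas *Plin2*, *Plin3*, and *Plin4* had led at D0. Relative to D0, 6 of 8 members were up at D7 (15.6% of all genes), the exceptions being *Plin2* (1.54-fold) and *Plin3* (1.20-fold). The preadipocyte or fibroblast markers summed to 888 RPKM at D0, 108 at D2, and 700 at D7, so all 6 were over 2-fold lower at D2 than at D0 and over 2-fold higher at D7 than at D2. The part of this in the droplet genes' changes was not tested.

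**Figure D2:**
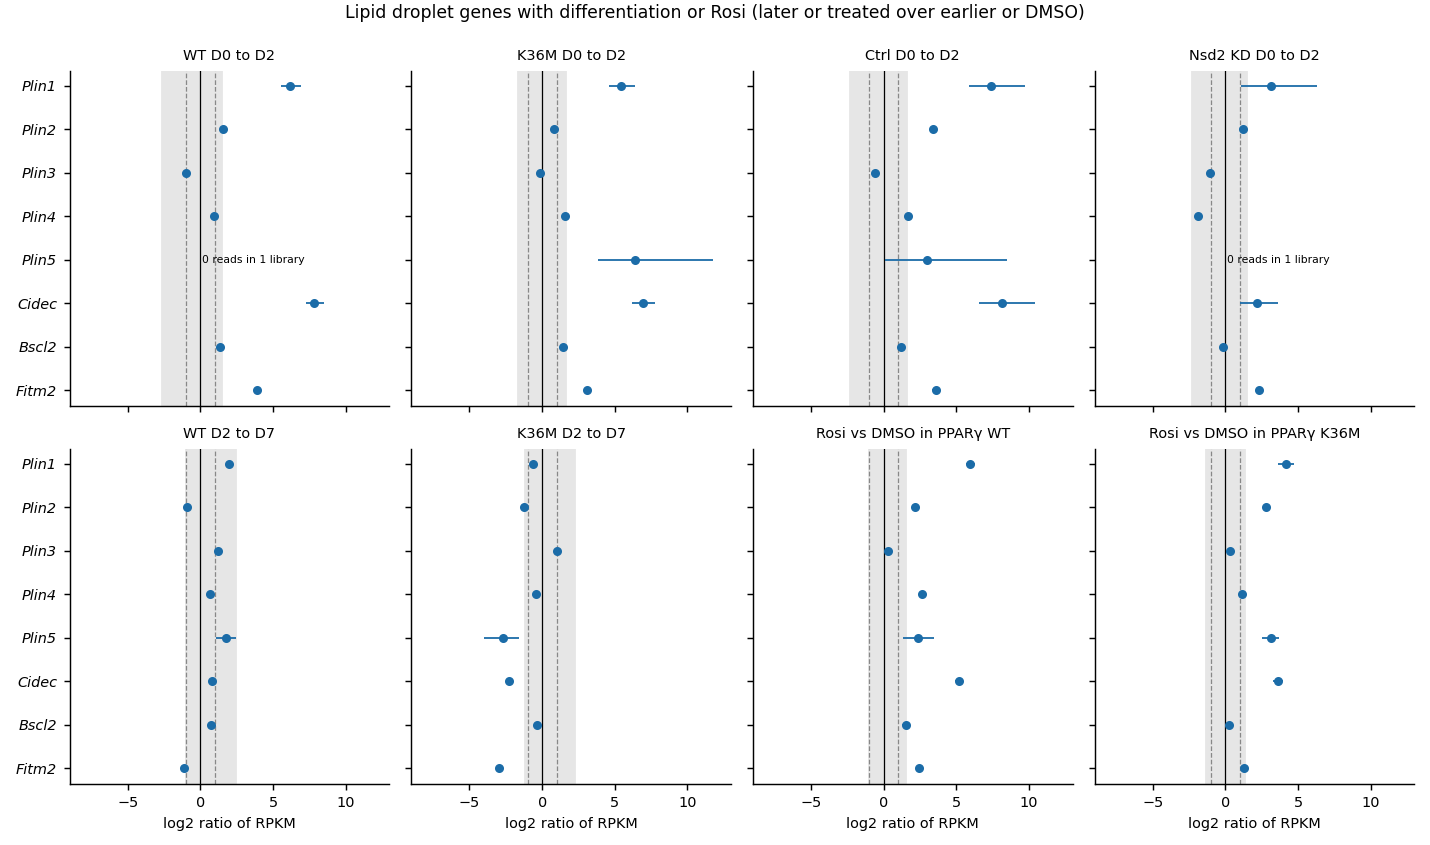
Log2 ratio of RPKM (horizontal axis) of each lipid droplet gene for 4 differentiation steps from D0 to D2, 2 steps from D2 to D7, and 2 Rosi treatments, with 95% counting intervals. Grey bands hold the middle 90% of genes that reach an RPKM of 1 in either library, and dashed lines mark 2-fold. *Plin1* and *Cidec* lie to the right of the band in every D0 to D2 and Rosi panel, and *Plin4* passes the left dashed line only in Nsd2 KD D0 to D2.

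K36M cells began close to WT cells for most members and ended far from them. At D0 only *Plin5* passed 2-fold, by 1 read against 0 (14.8% of all genes were called up and 12.0% down), which is no measurable difference. *Plin2* was at 195 RPKM in K36M and 99.7 in WT cells (1.95-fold higher, log2 interval 0.91 to 1.02), and *Plin4* at 11.7 and 22.3 (1.91-fold lower). *Plin1*, *Plin3*, *Cidec*, and *Bscl2* had intervals that include 1 at D0. The median log2 ratio of K36M to WT over all genes was 0.11, 0.14, and 0.12 at D0, D2, and D7, so a shortfall in K36M cells is slightly larger relative to the median gene.

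At D2, 2 members were lower in K36M than in WT cells and 1 was higher. *Plin1* reached 14.2 RPKM in K36M against 36.8 in WT cells (2.59-fold lower), and *Cidec* 54.0 against 138 (2.56-fold lower), while 9.9% of all genes were called down. *Plin5* was higher, 2.18 against 0.756 RPKM (2.89-fold, 53 and 28 reads; 22.2% of all genes were called up), a ratio that fell short of 2-fold with a pseudocount of 1 (log2 0.86). *Plin2* (339 and 294 RPKM), *Plin4* (35.5 and 43.0), *Bscl2* (25.8 and 24.2), and *Fitm2* (123 and 165) lay within 1.34-fold of WT. *Plin3*, at 26.2 RPKM, was 1.90-fold higher than in WT cells, since its value in K36M cells hardly moved from D0 (28.8 RPKM). Measured from their own D0, 6 of 8 members rose in K36M cells (16.5% of all genes), the 2 others being *Plin2* (1.74-fold higher) and *Plin3*. At D2, 4 of 6 adipocyte markers were down over 2-fold in K36M cells relative to WT, with sums of 2059 against 5711 RPKM. *Adipoq* went the other way, at 10.6 against 6.16 RPKM, short of 2-fold. Of 6 preadipocyte or fibroblast markers, 3 were over 2-fold higher, with sums of 278 against 108. The part of these marker changes in the result was not tested.

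At D7, 5 of 8 members were down over 2-fold relative to WT cells, against 13.2% of all genes, and 0 were higher, against 19.7%. *Cidec* was at 11.4 against 236 RPKM (20.8-fold lower, log2 interval -4.57 to -4.19) and *Plin1* at 9.33 against 144 (15.4-fold lower, -4.15 to -3.75). *Plin5* had 8 against 65 reads, 7.45-fold lower once scaled for depth. *Fitm2* was at 15.4 against 74.3 RPKM (4.82-fold lower) and *Plin4* at 27.0 against 69.0 (2.55-fold lower). Seipin (*Bscl2*) was at 20.5 against 39.7 RPKM, 1.94-fold lower and so just short of the threshold. The 2 widely expressed perilipins did not follow, with *Plin2* at 146 and 153 RPKM and *Plin3* 1.64-fold higher, at 53.4 against 32.5.

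Most of the gap at D7 arose after D2. From D2 to D7, 4 members fell in K36M cells (14.9% of all genes were called down), *Fitm2* 7.97-fold to 15.4 RPKM, *Plin5* 6.46-fold, *Cidec* 4.76-fold, and *Plin2* 2.32-fold. *Fitm2* thereby ended at 1.09-fold of its D0 value of 14.2 RPKM, with a log2 interval of -0.09 to 0.33, although it had risen 8.65-fold by D2. Only *Plin3* rose, 2.04-fold (21.5% of all genes were called up), and it fell short of 2-fold after median-ratio scaling of the libraries (log2 0.93). Relative to D0, 5 members were still up at D7 (18.6% of all genes) and 0 down (16.0%), among them *Plin1* (28.7-fold) and *Cidec* (25.6-fold). The response over this step was lower in K36M than in WT cells for all 8 members, and the difference of log2 ratios was below -1 for 6 of them, against 10.9% of 12599 genes. From D0 to D2 it was below -1 for 0 of 7, against 6.16%. The adipocyte markers moved with the members, since all 6 were over 2-fold lower in K36M cells at D7 and their sum was 501 against 5193 RPKM, and the preadipocyte or fibroblast markers summed to 1108 against 700. Their part in the result was not tested.

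**Figure D3:**
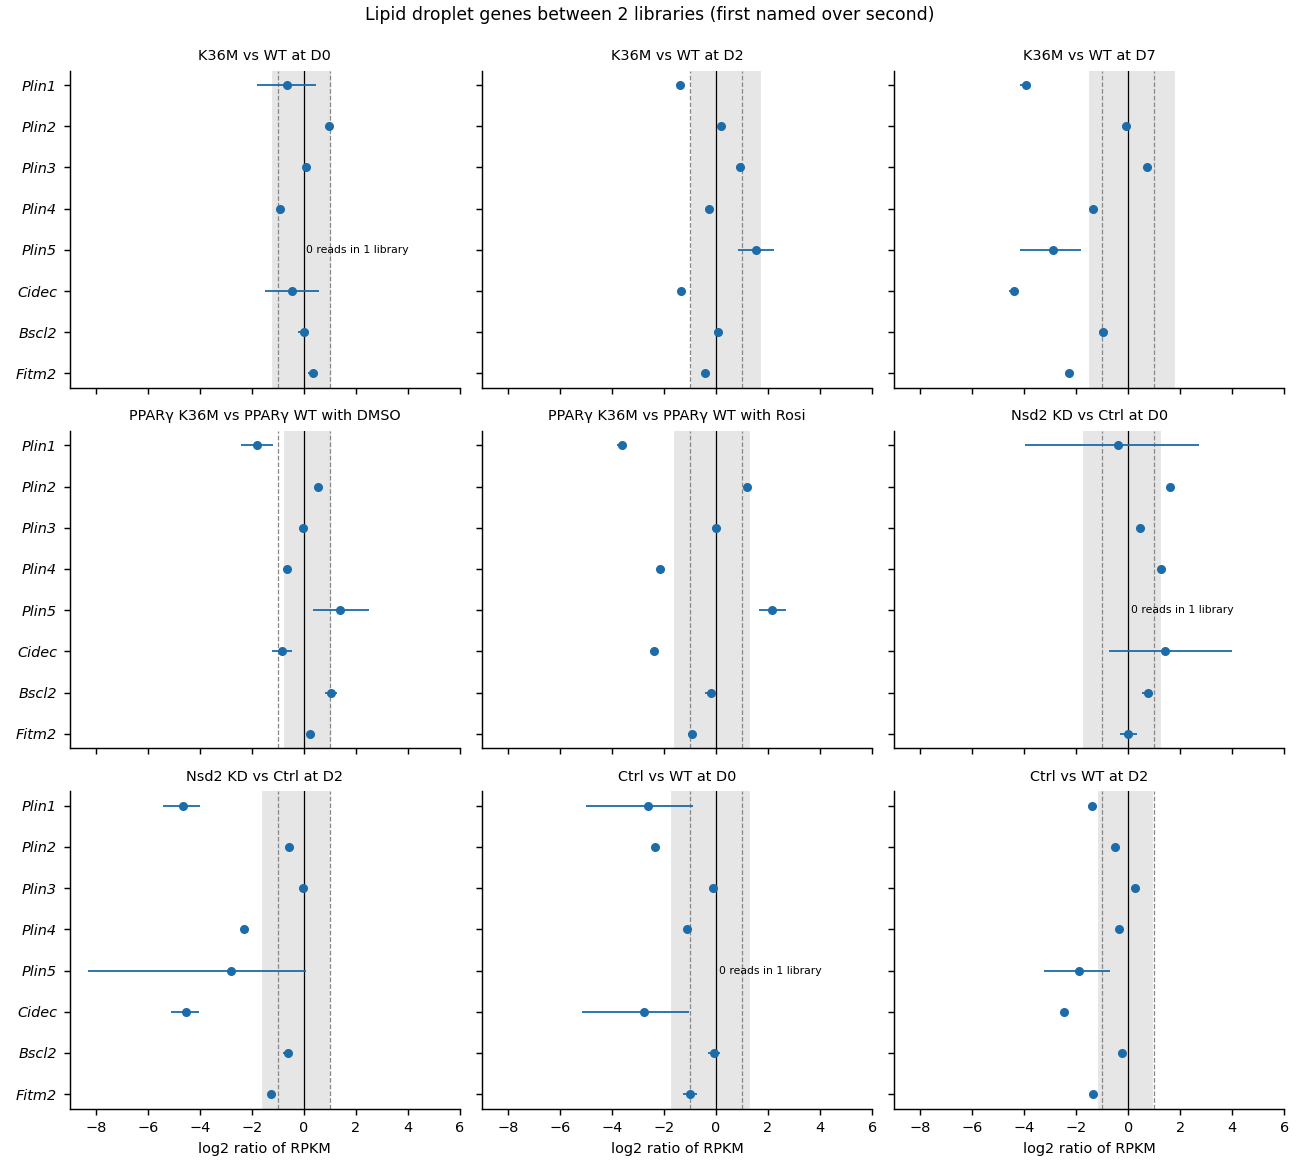
Log2 ratio of RPKM (horizontal axis) of each lipid droplet gene between 2 cell populations at the same day or treatment, with 95% counting intervals, the middle 90% of genes reaching an RPKM of 1 as grey bands, and 2-fold as dashed lines. *Plin1* and *Cidec* both lie left of the band in 7 of 9 panels, those of Ctrl against WT included, whereas *Plin3* stays within it in all 9 panels.

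With ectopic PPARγ, the members other than *Plin3* responded to Rosi in WT cells. These 7 of 8 rose, against 17.0% of all genes, and 0 fell, against 16.2%. *Plin1* went from 2.37 to 148 RPKM (62.4-fold) and *Cidec* from 3.78 to 136 (35.9-fold). *Plin4* went from 42.5 to 260 RPKM (6.11-fold), its highest value in the 14 libraries. *Fitm2* rose 5.46-fold to 66.5 RPKM, *Plin5* 5.02-fold to 1.31 (11 and 42 reads), *Plin2* 4.43-fold to 322, and *Bscl2* 2.83-fold to 16.1. *Plin3* was at 21.6 and 26.0 RPKM (1.21-fold).

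In K36M cells with PPARγ, 6 of 8 members still rose with Rosi (18.3% of all genes) and 0 fell (15.0%), but the perilipins split into 2 groups. *Plin2* went from 105 to 742 RPKM (7.06-fold, log2 interval 2.77 to 2.87) and *Plin5* from 0.678 to 5.83 RPKM (8.60-fold, 32 and 143 reads), ratios that were larger than those in WT cells. *Plin1* went from 0.684 to 12.1 RPKM (17.6-fold), *Cidec* from 2.12 to 25.7 (12.1-fold), *Fitm2* from 14.5 to 34.8 (2.40-fold), and *Plin4* from 26.8 to 58.9 (2.20-fold), all smaller than in WT cells. *Bscl2* (11.6 and 13.99 RPKM) and *Plin3* (20.9 and 25.8) stayed within 1.24-fold. The difference of the 2 log2 responses was -1.82 for *Plin1*, -1.57 for *Cidec*, -1.47 for *Plin4*, -1.23 for *Bscl2*, and -1.19 for *Fitm2*, each with an interval below 0, and 9.34% of 12183 genes were below -1. It was 0.67 for *Plin2* (interval 0.60 to 0.75) and 0.78 for *Plin5* (interval -0.33 to 1.88, which includes 0).

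The levels with Rosi therefore diverged by member. *Plin2* was 2.30-fold higher in PPARγ K36M than in PPARγ WT cells (742 against 322 RPKM) and *Plin5* 4.45-fold higher (5.83 against 1.31), among 28.4% of all genes called up. *Plin1* was 12.3-fold lower (12.1 against 148 RPKM), *Cidec* 5.29-fold lower (25.7 against 136), and *Plin4* 4.41-fold lower (58.9 against 260), among 12.6% of all genes called down. *Plin3* was at 25.8 and 26.0 RPKM. The median log2 ratio of this comparison was 0.16 over all genes but -0.11 over genes reaching an RPKM of 1 in either library. With DMSO, *Plin1* was already 3.47-fold lower in K36M cells (31 against 96 reads; 8.31% of all genes were called down), and *Plin5* (32 against 11 reads, 2.60-fold) and *Bscl2* (11.6 against 5.71 RPKM, 2.04-fold, or log2 0.9985 after median-ratio scaling) were higher (23.9% of all genes were called up). The 2 PPARγ K36M libraries list 25882 and 25720 transcripts above 0 against 20931 to 23935 in the 12 others, and the part of this in the members' values was not tested. *Pparg* was at 42.6 RPKM in K36M and 56.8 in WT cells with Rosi, and *Cebpa*, an adipogenic transcription factor, at 10.3 and 187. Of the 6 adipocyte markers, 5 were down over 2-fold in K36M cells with Rosi relative to WT, with sums of 1449 against 3564 RPKM, and their part in the result was not tested.

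**Figure D4:**
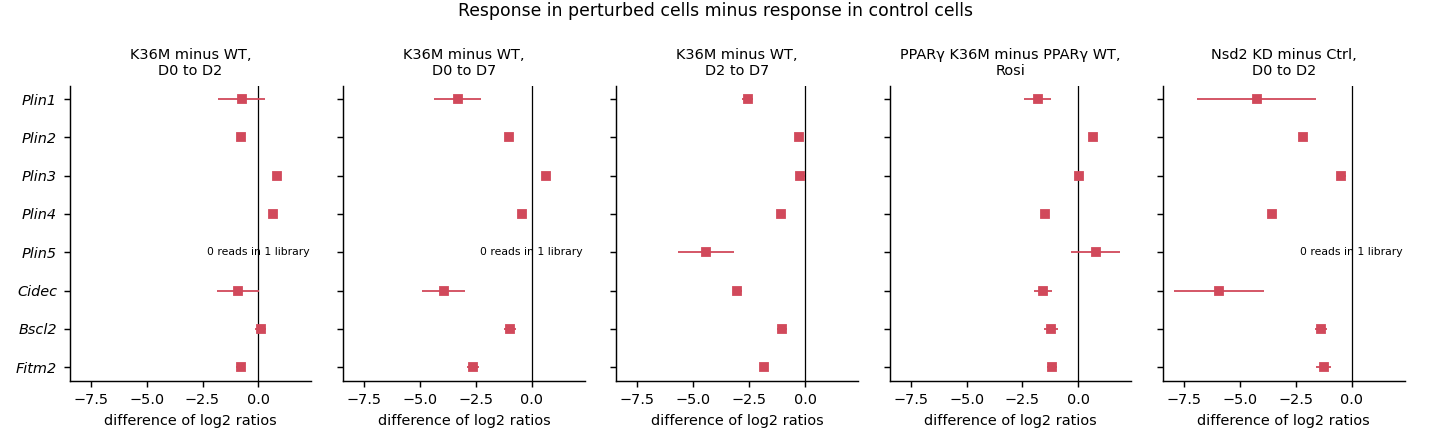
Difference between the log2 response in perturbed cells and in control cells (horizontal axis) for each lipid droplet gene, in 5 pairs of responses, with 95% intervals from the counting error of 4 libraries. All 8 members lie left of 0 for K36M minus WT from D2 to D7, whereas *Plin2* lies right of 0 for Rosi with PPARγ, at 0.67. *Plin5* (0.78) and *Plin3* (0.03) also lie right of 0 there, with intervals that include 0.

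*Nsd2* KD was followed at D0 and D2. In Ctrl cells 7 of 8 members were up from D0 to D2 (17.3% of all genes) and 0 down (23.4%), including *Plin2*, from 19.5 to 205 RPKM (10.5-fold), *Fitm2*, from 5.48 to 64.9 (11.8-fold), *Plin4*, from 10.4 to 33.2 (3.20-fold), and *Bscl2*, from 8.91 to 20.3 (2.28-fold). *Plin1* went from 3 to 519 reads and *Cidec* from 3 to 845 reads, with log2 ratios of 7.41 (interval 5.85 to 9.69) and 8.11 (interval 6.56 to 10.39), and *Plin5* from 1 to 8 reads. *Plin3* was again lower at D2, at 16.6 against 24.9 RPKM (1.501-fold).

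In KD cells 4 members rose from D0 to D2, of which *Fitm2* and *Plin2* had 157 or more reads in both libraries. *Fitm2* rose 4.996-fold, from 5.48 to 27.4 RPKM, and *Plin2* 2.29-fold, from 59.6 to 137 RPKM. *Cidec* went from 7 to 32 reads and *Plin1* from 2 to 18 reads, that is 4.51-fold (log2 interval 0.97 to 3.60) and 8.88-fold (log2 interval 1.09 to 6.30), to 1.06 and 0.548 RPKM. *Plin5* had 0 reads and then 1. By the 2-fold call 5 members were up (16.9% of all genes), and 4 without *Plin5*, whose interval includes no difference. *Plin4* fell 3.65-fold, from 24.6 to 6.74 RPKM (log2 interval -1.99 to -1.75), whereas it had risen in Ctrl cells, and *Plin3* fell 2.06-fold, from 33.7 to 16.4 RPKM (24.5% of all genes were called down). *Bscl2* was flat, at 14.9 and 13.2 RPKM. The difference of the 2 log2 responses was below -1 for 6 of 7 members, against 7.96% of 12184 genes, and lay between -5.94 (*Cidec*) and -0.46 (*Plin3*). It holds the gap at D0 as well as that at D2. The log2 ratio of KD to Ctrl at D0 and D2 was 1.61 and -0.59 for *Plin2*, 0.75 and -0.62 for *Bscl2*, and 1.25 and -2.30 for *Plin4*. For *Fitm2* it was -0.0001 and -1.245, and *Plin1* and *Cidec* had 7 reads or fewer at D0.

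At D2, 5 of 8 members were over 2-fold lower in KD than in Ctrl cells, against 18.5% of all genes, and 0 were higher, against 12.0%. *Plin1* was at 0.548 against 13.8 RPKM (25.3-fold lower), *Cidec* at 1.06 against 24.6 (23.1-fold), *Plin4* at 6.74 against 33.2 (4.92-fold), and *Fitm2* at 27.4 against 64.9 (2.37-fold). *Plin5* counted as the fifth with 1 against 8 reads, but its log2 interval of -8.28 to 0.09 includes 0. *Plin2* (137 and 205 RPKM) and *Bscl2* (13.2 and 20.3) were 1.502-fold and 1.54-fold lower, and *Plin3* was at 16.4 and 16.6 RPKM. At D0 the KD cells had more *Plin2* than Ctrl cells, 59.6 against 19.5 RPKM (3.05-fold), and more *Plin4*, 24.6 against 10.4 (2.37-fold). *Cidec* was the third member called up at D0 on 7 against 3 reads (13.5% of all genes were called up) and *Plin5* the 1 called down on 0 against 1 read (18.1%), and both intervals include no difference. All 6 adipocyte markers were over 2-fold lower in KD cells at D2, with sums of 161 against 2500 RPKM. Of 6 preadipocyte or fibroblast markers, 4 were over 2-fold lower and 1 higher, with sums of 50.1 against 128 RPKM. The sums follow *Col1a1* (13.7 against 89.9 RPKM), and the 1 higher was *Dlk1* (27.9 against 3.51 RPKM). The part of these marker changes in the result was not tested.

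The 2 unperturbed populations, WT cells with ectopic H3.3 and Ctrl cells with a control shRNA, are the nearest to a repeat in these data, and they did not coincide. At D0, 5 of 8 members were over 2-fold lower in Ctrl than in WT cells, against 23.0% of all genes (12.0% were called up), led by *Plin2* at 19.5 against 99.7 RPKM (5.11-fold lower). *Plin4* was at 10.4 against 22.3 RPKM and *Fitm2* at 5.48 against 11.0, both close to 2-fold and short of it after median-ratio scaling (log2 -0.87 and -0.77), and *Plin1* and *Cidec* had 3 reads each against 20 and 22. At D2, 4 members were over 2-fold lower, against 15.6% of all genes, namely *Cidec* (24.6 against 138 RPKM, 5.61-fold), *Plin5* (8 against 28 reads), *Plin1* (13.8 against 36.8, 2.66-fold), and *Fitm2* (64.9 against 165, 2.54-fold). The median log2 ratio of Ctrl to WT over all genes was -0.28 at D0 and -0.13 at D2. At D2 the shortfalls of *Plin1* and *Cidec* in K36M against WT cells (2.59-fold and 2.56-fold) were thus no larger than those between the 2 controls (2.66-fold and 5.61-fold), whereas *Plin1* and *Cidec* in KD against Ctrl cells at D2 (25.3-fold and 23.1-fold) exceeded them. For *Fitm2* the KD shortfall at D2 (2.37-fold) did not exceed the gap between the controls, whereas for *Plin4* it did (4.92-fold against 1.30-fold). At D0 *Plin2* was 3.05-fold higher in KD than in Ctrl cells, against 5.11-fold between the controls, and *Plin4* 2.37-fold against 2.15-fold. At D7 no such second control was measured. *Plin3* and *Bscl2* differed by at most 1.20-fold between the controls on either day.

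Because RPKM is scaled by transcript length, the perilipins can be compared with each other as shares of their summed RPKM. *Plin2* made 66.7% of the sum in WT cells at D0 (95% interval 65.6 to 67.7), 75.7% at D2, and 38.2% at D7, when *Plin1* made 35.9%. In K36M cells *Plin1* made only 3.95% at D7 and *Plin2* 61.8%. The sum was 401 RPKM in WT and 236 RPKM in K36M cells at D7, but 757 and 844 RPKM in PPARγ WT and PPARγ K36M cells with Rosi, so the summed perilipin RPKM in the latter was no lower although *Plin1* and *Plin4* were. *Plin2* made 87.9% of the sum in PPARγ K36M cells with Rosi and 42.6% in PPARγ WT cells, where *Plin4* made 34.3% and *Plin1* 19.6%. In Ctrl cells at D0 *Plin3* led with 45.3%, ahead of *Plin2* with 35.5%, the only library in which *Plin2* was not the leading perilipin. In *Nsd2* KD cells at D2, *Plin2* made 85.2% and *Plin1* 0.342%, against 76.3% and 5.15% in Ctrl cells.

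**Figure D5:**
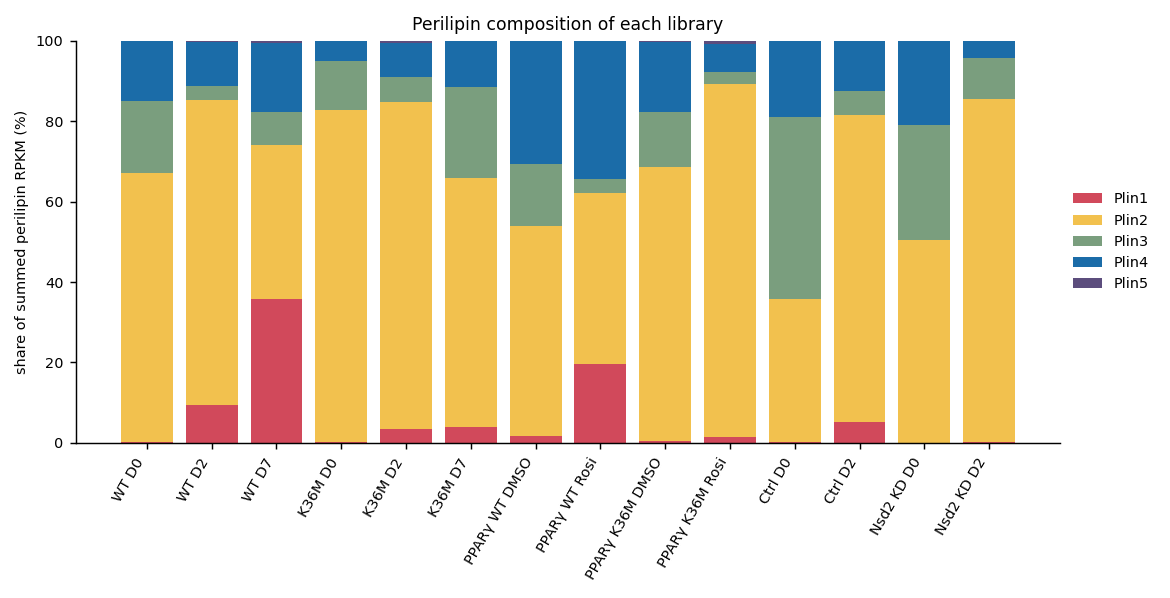
Share of each perilipin in the summed RPKM of the 5 perilipins (vertical axis, percent) in each of the 14 libraries (horizontal axis). *Plin1* takes 35.9% in WT D7 and 19.6% in PPARγ WT Rosi but at most 3.95% in any K36M library, and *Plin2* takes 87.9% in PPARγ K36M Rosi.

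Genes of related function were described from lists, by counts and medians. Of 6 droplet lipases and regulators, all 6 were over 2-fold higher at D2 than at D0 in WT cells (13.6% of all genes), and all 6 were down over 2-fold in K36M cells at D7 relative to WT (13.2% of all genes), with a median log2 ratio of -3.74 (0.12 over all genes). *G0s2*, an inhibitor of the main triglyceride lipase, was at 24.9 against 335 RPKM there, and *Pnpla2*, that lipase, at 17.8 against 236. With Rosi and PPARγ all 6 were likewise down over 2-fold in K36M cells (12.6% of all genes), and in KD against Ctrl cells at D2 5 of 6 were lower (18.5% of all genes) and 1 (*Pnpla3*, at 0.0731 and 0.0320 RPKM) higher. Of 6 enzymes of triglyceride synthesis, 5 were over 2-fold lower in K36M cells at D7, 5 with Rosi and PPARγ, and 4 in KD cells at D2, where 13.2%, 12.6%, and 18.5% of all genes were called down. *Dgat2*, which catalyzes the last step, was at 19.1 against 314 RPKM at D7, and *Agpat2*, an earlier step, at 23.2 against 238. Of 22 other droplet proteins, 4 were over 2-fold lower and 0 higher in K36M against WT cells at D7 (13.2% and 19.7% of all genes), with a median log2 ratio of 0.05. *Cav1* (caveolin-1) was at 151 against 526 RPKM, and *Cavin1*, its partner in caveolae, at 141 and 134. With Rosi and PPARγ 7 of 22 were lower and 0 higher (12.6% and 28.4% of all genes), and in KD against Ctrl cells at D2 5 were lower and 1 higher (18.5% and 12.0%). Some of these calls lie at the floor. *Fitm1* and *Hsd17b13* counted as lower in each of these comparisons, at 0 against at most 0.175 RPKM. *Cidea* counted as lower with Rosi (0 against 0.0519 RPKM) and was the 1 higher in KD cells (0.0973 against 0). The shares of these lists were not tested against each other or against all genes.

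The members also differed in how closely they followed one another and other genes, described over the same 14 libraries by Pearson's r of log2(RPKM + 1). These points share libraries, experiments, and the D0 to D2 step, so r is a description only. *Plin1* and *Cidec* were the closest pair (r = 0.98, n = 14), followed by *Cidec* and *Fitm2* (r = 0.89, n = 14) and *Plin1* and *Plin4* (r = 0.83, n = 14). The highest r of *Plin3* with another member was 0.11 (with *Bscl2*), and its r with *Fitm2* was -0.38 (n = 14). Among 8533 genes with a mean of at least 5 RPKM outside the members, those most like *Plin1* were *Cd36*, *Plaat3*, *Lipe*, *Lgals12*, and *Pnpla2* (r from 0.94 to 0.98), of which *Cd36* takes up fatty acids and *Lipe* and *Pnpla2* encode lipases. Those most like *Plin2* were *Fgf21*, *Trarg1*, *Rnf4*, *Hprt*, and *Akap1*, with lower r (0.83 to 0.87). For *Plin3* they were *AI413582*, *Glmp*, *Fbxw17*, *Dnase2a*, and *Nagpa* (0.91 to 0.92), and for *Bscl2* *Tmem143*, *Vps25*, *Dapk1*, *Ptgr2*, and *Retn* (0.91 to 0.94).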

How the data were processed

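RNA-Seq of 14 libraries was used (34 samples are listed; the ChIP-Seq samples were not analysed here). The authors deposited RPKM per RefSeq transcript, for 29082 transcripts on mm9. Per the labels, CASAVA 1.8.2 and SICER were among the tools of the series, and the program that aligned and counted RNA-Seq reads is not given in the sources used here. A gene symbol was found by RefSeq accession for 97.8% of transcripts, and each gene was represented by the transcript with the highest mean RPKM. GENCODE M1 was used for gene positions only. RPKM values of a transcript step by what a single read is worth, and from these steps reads were recovered for all 26946 transcripts detected in 2 or more libraries, with totals within 7.86e-06 of whole numbers. Recovery takes the smallest length that gives whole reads, so counts that share a common factor can come out too low. Recovery, calls, and intervals were run on simulated counts with counting error only, built from the recovered lengths and totals. That run says nothing of the spread between cultures or libraries. Each condition has 1 library, so no test was made and nothing measures biological spread. Calls are RPKM ratios over 2-fold with no pseudocount, over genes above 0 in at least 1 of both libraries, and the members' calls are set beside the share of all genes called. Comparisons that share a library (such as K36M against WT at D7 and WT D2 to D7) are not independent.

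The members and lists were chosen with earlier results of these data known. All 8 members were named, with the 5 most alike genes of *Plin1*, *Plin2*, *Plin3*, and *Bscl2*, the 2 highest genes of the described lists, any gene a result turns on, and *Nsd2*, *Pparg*, and *Cebpa* as label checks. Alternatives were a filter requiring an RPKM of 1 in either library, added pseudocounts (0.1 or 1), median-ratio scaling over 13540 genes, the mean over all transcripts of a gene, and a call that also needs its counting interval to exclude 1. Python 3.11.15, pandas 2.3.3, numpy 2.4.6, scipy 1.17.1, and matplotlib 3.10.9 were used.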

Additional observations from a re-analysis of the deposited data

Results flagged for a closer look

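In 7 cases a member moved one way in control cells and the opposite way in perturbed cells, with both counting intervals excluding no change. With many reads such an interval excludes no change for small ratios too. The share of all genes that meet this rule was not computed, so the count does not set the members apart from other genes. The difference between responses was not tested, since there was 1 library per condition.

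From D2 to D7, *Plin1* went up in WT and down in K36M cells (log2 ratios 1.97 and -0.61, difference -2.57), as did *Cidec* (0.77 and -2.25, difference -3.02) and *Plin5* (1.74 and -2.69, difference -4.43, from 8 to 65 reads). *Plin4* (0.68 and -0.39, difference -1.08) and *Bscl2* (0.72 and -0.33, difference -1.05) had the same signs with smaller values, neither of them past 2-fold in either population. From D0 to D7, *Plin2* was higher in WT and lower in K36M cells (0.62 and -0.41, difference -1.03), again short of 2-fold in both. The K36M cells started from a higher *Plin2* level at D0 (195 against 99.7 RPKM), and at D7 the levels were close (146 and 153 RPKM). From D0 to D2, *Plin4* rose in Ctrl and fell in *Nsd2* KD cells (1.68 and -1.87, difference -3.55), past 2-fold in both. The KD cells started from a higher *Plin4* level at D0 (24.6 against 10.4 RPKM). The same step of *Plin4* was 0.95 in WT and 1.60 in K36M cells.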

How the results depend on the processing

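No paired analysis was possible because each condition has 1 library. Of 146 member ratios with a finite value, 0 of those past 2-fold changed sign under any alternative, and averaging over the transcripts of a gene changed 0 calls. Most counts that changed did so through members with few reads. The counts listed further below changed most in proportion, and smaller changes also occurred. Requiring an RPKM of 1 gave 5 up in WT D0 to D2, 6 up in Ctrl D0 to D2, and 4 up in K36M D0 to D7. It also gave 4 down in KD against Ctrl and 3 down in Ctrl against WT, both at D2. A pseudocount of 1 gave these values too, and 6 up with Rosi in PPARγ WT cells. The call that also needs its interval gave 4 down in KD against Ctrl at D2. Requiring an RPKM of 1 in either library left 0 members up in K36M against WT at D0, 1 in PPARγ K36M against PPARγ WT with DMSO, 3 in KD D0 to D2, and 0 in Ctrl against WT at D0, and 0 members down in KD against Ctrl at D0 and 3 in Ctrl against WT at D0. A pseudocount of 0.1, and likewise the call that also needs its counting interval, left 0 up in K36M against WT at D0, 0 down in KD against Ctrl at D0, and 0 up in Ctrl against WT at D0. A pseudocount of 1, which shrinks low genes by construction, gave those 3 values of 0 as well, and 0 up in K36M D2 to D7, 0 up in K36M against WT at D2, 0 up in PPARγ K36M against PPARγ WT with DMSO, 2 up and 1 down in KD D0 to D2, and 2 down in Ctrl against WT at D0. Median-ratio scaling gave 2 down in WT D2 to D7 (*Plin2* passed, log2 ratio -1.0012), 0 up in K36M D2 to D7 (*Plin3*, 0.93), 1 up in PPARγ K36M against PPARγ WT with DMSO (*Bscl2*, 0.9985), and 3 down in Ctrl against WT at D0 (*Plin4*, -0.87, and *Fitm2*, -0.77, no longer passed). It also took *Plin4* past 2-fold in WT D0 to D2 (1.02) and *Bscl2* in K36M against WT at D7 (-1.08), so values near 2-fold carry no weight on either side. It turned the sign of 5 ratios under 0.12 in size, 3 of them of *Plin3* and the others of *Bscl2* and *Fitm2*. *Plin5* has at most 143 reads, and at D0 at most 1, so its changes from D0 are bounded by depth. With 1 library per condition the spread between cultures is unknown, and the difference between the WT and Ctrl populations shows that it need not be small.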

Other observations

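*Hilpda*, which encodes a droplet protein that inhibits the lipase ATGL, was at 7.79, 30.9, and 5.72 RPKM in WT cells at D0, D2, and D7, and at 7.77, 5.59, and 5.90 in K36M cells, so its D2 value stood above the others in WT cells alone in that experiment. In Ctrl cells it was at 4.78 and 12.1 RPKM at D0 and D2, and in *Nsd2* KD cells at 7.11 and 4.54. *Hsd17b11*, which encodes a droplet-bound dehydrogenase, was higher in K36M than in WT cells at D2 (24.7 against 8.50 RPKM) and with Rosi and PPARγ it was at 33.6 and 23.3. *Hsd17b11* in *Nsd2* KD cells was at 23.2 RPKM at D0 and 3.17 at D2, against 11.3 and 5.81 in Ctrl cells. *Mgll*, the monoglyceride lipase gene, was at 62.0 RPKM in K36M against 38.0 in WT cells at D2 and at 7.58 against 27.0 at D7. These genes were chosen after their values were seen.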
